A study of Homo sapiens with 10 samples.

Results

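The genes described here are 40 genes of the centromere, the kinetochore and the spindle assembly checkpoint, taken by symbol from a table of 26040 genes in 10 RNA libraries. All came from U2OS, an established line of human osteosarcoma cells. The libraries form 4 groups, 3 of shARVCF cells given 10 µM nutlin-3a for 24 h, 3 of untreated shARVCF cells, 3 of control cells given nutlin-3a and 1 of untreated control cells. Every line carried a lentiviral shRNA and was selected in puromycin at 1 µg/ml. The shARVCF lines 1, 2 and 3 hold different shRNAs against ARVCF, a catenin of cell junctions, and the control line, shCont, holds a negative control shRNA. The labels speak of single clones, so a clone and its shRNA cannot be told apart. Nutlin-3a frees the transcription factor p53 from MDM2, its ubiquitin ligase, and the series asks how ARVCF knockdown changes transcription by p53.

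Of the 40 members, 39 had a value above 0 in some library, and the same 39 passed the filter on low values, a level of at least 10 in at least 3 libraries. SKA1, which encodes a subunit of a microtubule-binding complex, was listed at 0 in all 10 libraries, and so was TWIST1, a mesenchymal marker. A 0 in this table is therefore given only as a listing. Levels are fragments per gene that the authors estimated and scaled per library, called scaled fragments below. Members were placed by where the protein sits, 15 at the inner centromere and 24 at the outer kinetochore or in the checkpoint, and CENPJ, which shares the CENP name, acts at centrioles.

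The kinetochore is the protein assembly on which spindle microtubules pull chromosomes apart. CENPA, a variant of histone H3, marks centromere chromatin, and the constitutive centromere-associated network sits on it through the cell cycle. In mitosis this network carries the outer KMN network (CASC5, the MIS12 complex and the NDC80 complex), in which the NDC80 complex grips microtubules. Checkpoint proteins gather on kinetochores that hold no microtubule and delay anaphase until all are attached. Many of these genes are transcribed mainly in G2 and mitosis, and active p53 is known to lower such genes through p21 and the DREAM repressor complex, which binds a promoter element called CHR.

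ARVCF read 1284, 1188 and 1232 scaled fragments in nutlin-3a shARVCF libraries and 291.8, 343.2 and 338 in untreated ones, against 2928, 2571 and 2376 in nutlin-3a control libraries and 617.7 in the untreated control library. CDKN1A, the gene of p21, stood at 27230 to 32930 in nutlin-3a shARVCF libraries and 2636 to 4528 in untreated ones, against 27850 to 34780 in nutlin-3a control libraries and 3999 in the untreated control. Library totals were 17821751 to 19903778 scaled and, by estimate, 15073578 to 21096205 unscaled, with control nutlin-3a libraries 2 and 3 the shallowest. The mesenchymal markers VIM (27690 to 59680), SPARC (30630 to 48420) and COL1A1 (41170 to 96680) were abundant in every library, and the blood markers CD3E, HBB and PTPRC reached at most 2.576, 0.8496 and 12.74. The epithelial markers EPCAM, CDH1 and KRT5 reached 142.5, 34.69 and 26.3, and the endothelial markers VWF and PECAM1 reached 80.34 and 18.22. The libraries of a shARVCF group come from different lines, while the 3 nutlin-3a control libraries are of 1 line and the labels do not say that they were separate cultures, so their spread may be technical.

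Without drug, the members without MAD1L1 summed to 59740, 60600 and 61660 scaled fragments in the shARVCF lines and to 57860 in the control line. Per kilobase of the longest annotated transcript, the highest untreated level was that of ZWINT, which links the KMN network to the RZZ complex, at 1690 in the shARVCF lines and 1720 in the control line. NDC80 stood at 1360 per kilobase in the shARVCF lines and 1290 in the control line, and CENPF at 1170 in the shARVCF lines and 1080 in the control line. Among members above 0, the lowest per kilobase were CENPP (24.8 in the shARVCF lines, 23.2 in the control line), SPC24 (36.4 and 33.2) and SPC25 (47 and 44.5). SPC24 and SPC25 form a complex with NDC80 and NUF2, so subunits of the same complex were listed at levels far apart.

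**Figure D1:**
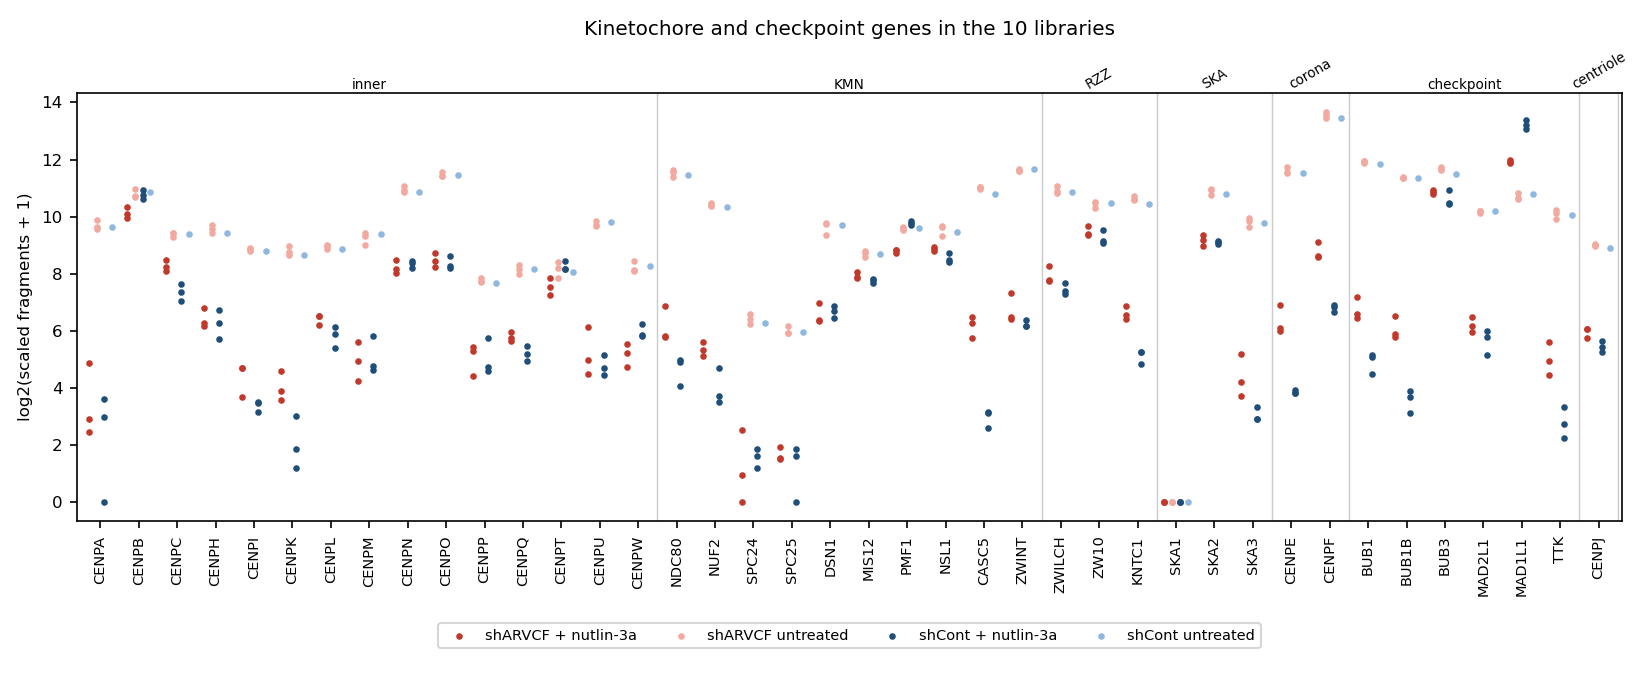
Levels of the 40 members by library, as log2(scaled fragments + 1), with members grouped by where the protein sits and a point for each library. Nutlin-3a libraries lie below untreated ones for most members, MAD1L1 lies above, and SKA1 is listed at 0 throughout.

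Nutlin-3a lowered nearly the whole set in the shARVCF lines. Of 39 members tested, 38 fell and 1 rose by limma with Benjamini-Hochberg adjustment, against 21.7% of all 14955 genes tested that were called lower and 21.0% that were called higher. The members' median was log2 -3.16, beside -0.0017 over all genes. A member that is high only without drug passed the filter through its untreated libraries, so these counts describe the members that passed. In bulk RNA, fewer cells in G2 or mitosis and less RNA per cell cannot be told apart. MKI67, a proliferation marker outside the set, read 446.6, 321.9 and 525.9 in nutlin-3a shARVCF libraries and 15520, 17520 and 19410 in untreated ones. PCNA, the other proliferation marker listed, read 3192, 4228 and 3509 with nutlin-3a and 3882, 4078 and 4153 without. The change of PCNA was not called (log2 -0.16, adjusted p = 0.282). The part of proliferation in the members' fall was not tested.

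All 15 inner members fell in the shARVCF lines, with a median of log2 -3.01, and 12 of them fell by more than 2 on the log2 scale. CENPA read 4.377, 6.478 and 28.02 scaled fragments in nutlin-3a shARVCF libraries, against 758.2, 788.3 and 938.6 in untreated ones. The groups lie far apart, and line 3 kept the most. The fall was 78.4-fold (log2 -6.29, SE 0.977, adjusted p = 0.00124), on the log2(value + 1) scale that all folds here share and that understates changes of low genes. CENPK, CENPU, CENPI and CENPM, subunits of the constitutive network, fell as well (log2 -4.78, -4.55, -4.50 and -4.34). CENPO, CENPP and CENPQ, which share a subcomplex with CENPU, changed by log2 -3.01, -2.73 and -2.39.

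The smallest falls of the inner group were in CENPC, CENPB and CENPT. CENPC, which joins CENPA chromatin to the outer kinetochore, read 298.5, 353.4 and 272.7 in nutlin-3a shARVCF libraries and 690.7, 692.2 and 627.9 in untreated ones (log2 -1.12, SE 0.156, adjusted p = 9.12e-05). CENPB, which binds a repeat motif of centromeric DNA, read 986.1, 1087 and 1298 with nutlin-3a and 1669, 1634 and 1987 without (log2 -0.65, SE 0.125, adjusted p = 0.00107). CENPT, a histone-fold protein that can recruit the NDC80 complex, read 149.5, 181.8 and 228.7 with nutlin-3a and 294.9, 226.4 and 342.2 without (log2 -0.62, SE 0.189, adjusted p = 0.0184). Treated and untreated libraries did not overlap for CENPC and CENPB, while for CENPT the highest treated library passed the lowest untreated one. CENPT shares exon positions with NUTF2 on the opposite strand, and the sources used here do not say whether counting used strand. CENPN, CENPO, CENPP, CENPU, ZWILCH and MAD2L1 also share exon positions with genes on the opposite strand.

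The outer and checkpoint members had a median of log2 -4.36 over the 23 tested, and 22 of them fell. NDC80 read 54.67, 53.47 and 116.3 in nutlin-3a shARVCF libraries and 2693, 3176 and 3007 in untreated ones (log2 -5.38, SE 0.312, adjusted p = 2.29e-07). NUF2, its partner, fell by 5.07 on the log2 scale. SPC24 was listed at 0, 0.9251 and 4.75 with nutlin-3a and at 74.16, 84.32 and 94.31 without, and SPC25 at 2.739, 1.85 and 1.9 with nutlin-3a and 59.87, 59.81 and 71.37 without. Both ended at the value of a few fragments, where a fold depends on the pseudocount. CASC5, also known as KNL1 and the platform for BUB1 and BUB1B, read 76.69, 52.73 and 88.35 with nutlin-3a and 2080, 2079 and 2013 without (log2 -4.84, SE 0.214, adjusted p = 5.05e-09).

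The subunits of the MIS12 complex fell to different depths. DSN1 read 82.16, 80.48 and 125.4 in nutlin-3a shARVCF libraries and 861.4, 656.9 and 865.8 in untreated ones (log2 -3.06, SE 0.195, adjusted p = 9.77e-08). MIS12, NSL1 and PMF1 fell less (log2 -0.78, -0.69 and -0.79) and kept 55% to 68.6% of the untreated level of their line, against 9.54% to 14.5% for DSN1. PMF1 shares exons with the read-through gene PMF1-BGLAP, which stood at no more than 28.23 in any library. In the RZZ complex, which brings dynein to kinetochores, KNTC1 (also called ROD), ZWILCH and ZW10, which also serves membrane traffic, fell (log2 -4.03, -3.01 and -0.96). SKA3 changed by log2 -5.45 and SKA2, of the same microtubule-binding complex, by -1.71, and both were called.

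CENPF, a protein of the outermost layer, read 386.2, 391.3 and 545.3 in nutlin-3a shARVCF libraries and 11290, 11970 and 12900 in untreated ones (log2 -4.79, SE 0.131, adjusted p = 5.64e-10). CENPE, a kinesin of the same layer, fell by 5.30 on the log2 scale. Among the checkpoint genes, BUB1 and TTK, which encode kinases, and BUB1B, the BubR1 gene, fell (log2 -5.18, -5.10 and -5.30), as did MAD2L1, whose product holds CDC20 (log2 -3.98). BUB1B shares exon positions on its own strand with the gene BUB1B-PAK6. BUB3, the shared partner of BUB1 and BUB1B, read 1756, 1859 and 1943 with nutlin-3a and 3277, 3441 and 3147 without (log2 -0.83, SE 0.12, adjusted p = 0.000129). These BUB3 libraries did not overlap, yet the fall was shallow beside those of its partners. CENPJ, at the centriole, fell by 3.05.

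MAD1L1 was the member that rose. This gene (hg38, chromosome 7, 1815793 to 2233243, minus strand) encodes the protein that anchors MAD2 at unattached kinetochores. It read 3847, 3997 and 3756 scaled fragments in nutlin-3a shARVCF libraries and 1559, 1621 and 1825 in untreated ones (log2 1.22, SE 0.0983, adjusted p = 8.25e-07). In the control line it read 10710, 9524 and 8682 with nutlin-3a and 1771 without (log2 2.44, SE 0.139, adjusted p = 5.62e-08). Every treated library lay above every untreated one of its kind of line.

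**Figure D2:**
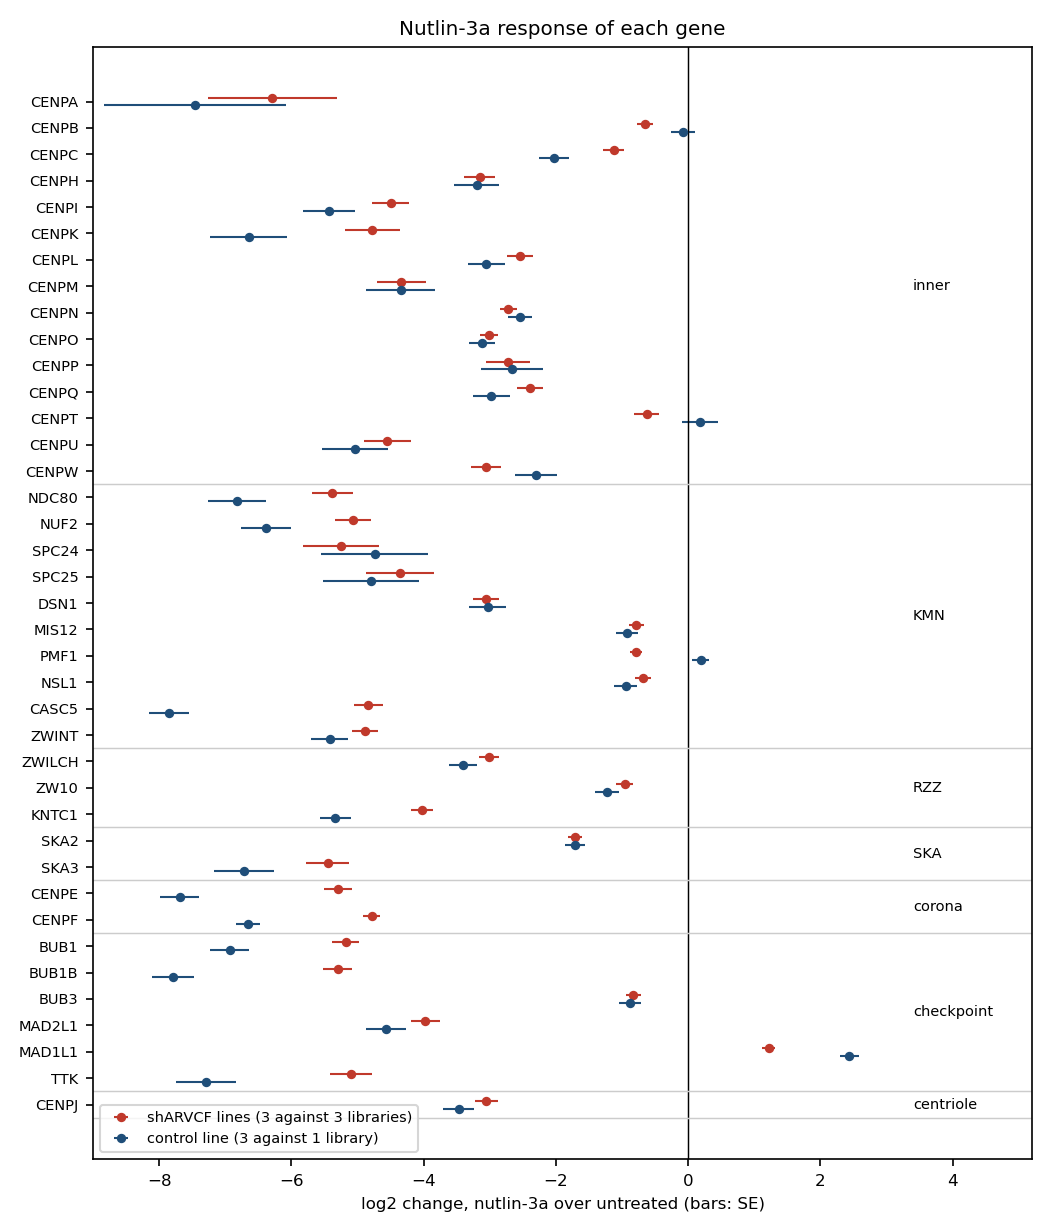
Change with nutlin-3a of the 39 members tested, as log2 of nutlin-3a over untreated with SE bars, in the shARVCF lines and the control line. MAD1L1 stands alone to the right, and CENPB, CENPT, MIS12, PMF1, NSL1, ZW10 and BUB3 lie nearest 0.

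In the control line, 35 of the 39 members fell, 1 rose and 3 were not called, against 32.0% of all genes called lower and 25.1% called higher. The members' median was log2 -3.47, beside -0.096 over all genes. The untreated control is a lone library, whose spread was taken to equal that of the other groups. CASC5 read 5.014, 7.727 and 7.77 in nutlin-3a control libraries and 1784 in the untreated one (log2 -7.85, SE 0.303, adjusted p = 6.45e-09). This was the deepest fall of the set on deposited values. BUB1B read 13.59, 7.727 and 11.65 with nutlin-3a and 2591 without (log2 -7.79, SE 0.315, adjusted p = 8.26e-09). CENPE read 13.04, 14.17 and 12.95 with nutlin-3a and 2966 without (log2 -7.69, SE 0.297, adjusted p = 6.45e-09). In each of these genes the treated libraries lie close together and far below the untreated one. CENPA was listed at 6.776, 0.000292 and 11.25 with nutlin-3a and 802.6 without, and the near-zero value is an estimate under a whole fragment.

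The 3 members not called in the control line were CENPB, CENPT and PMF1. CENPB read 1966, 1726 and 1564 in nutlin-3a control libraries and 1840 in the untreated one (log2 -0.08, SE 0.177, adjusted p = 0.729). After the trend with the length and GC of transcripts in each library was removed, CENPB stood at log2 -0.52 and was called (adjusted p = 0.0217). CENPT read 343.6, 282 and 281.7 with nutlin-3a and 266.2 without (log2 0.18, SE 0.267, adjusted p = 0.592). PMF1 read 837, 920.8 and 870.8 with nutlin-3a and 766.7 without (log2 0.19, SE 0.128, adjusted p = 0.22). With upper-quartile factors PMF1 kept its sign and was called (log2 0.36, adjusted p = 0.0347), whereas the length and GC removal turned its sign (log2 -0.57, adjusted p = 0.00383). BUB3 read 1939, 1433 and 1380 with nutlin-3a and 2888 without (log2 -0.88, adjusted p = 0.000723), and stood at log2 0.20 (adjusted p = 0.301) after that removal.

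**Figure D3:**
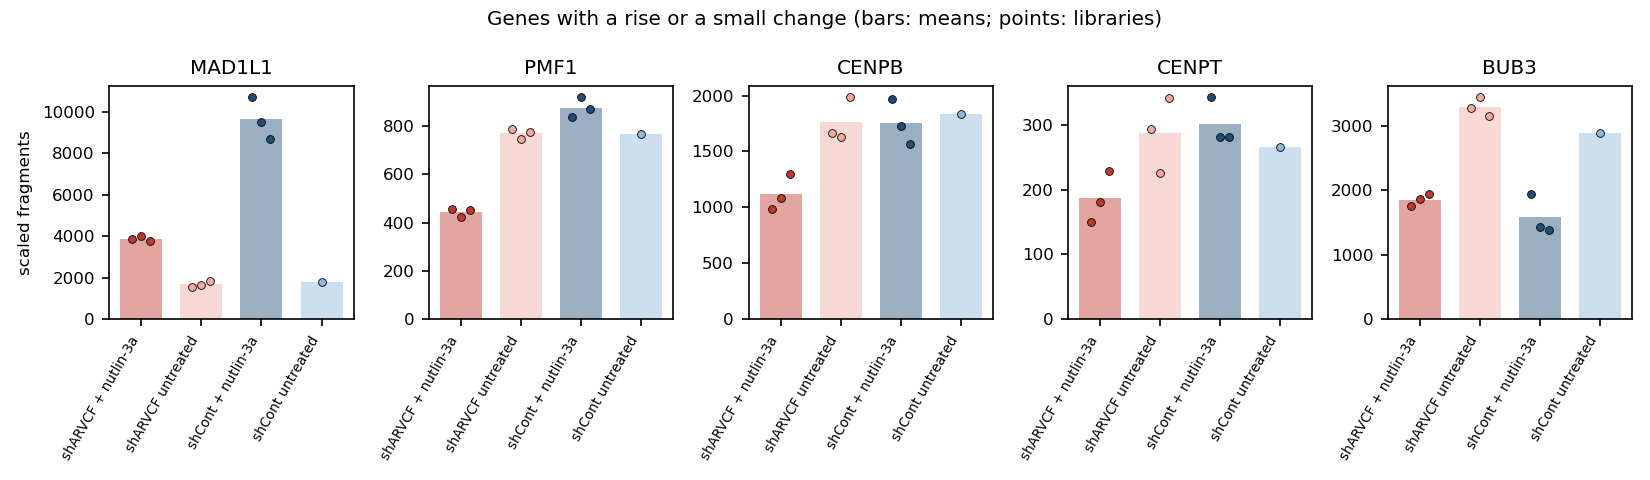
Scaled fragments of MAD1L1, PMF1, CENPB, CENPT and BUB3 in each group, with the mean and a point for each library. MAD1L1 is highest in nutlin-3a control libraries (8682 to 10710), and PMF1 is lowest in nutlin-3a shARVCF libraries (424.2 to 458.3).

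The inner and outer groups overlapped in the control line. Inner members had a median of log2 -3.05, with 13 of 15 lower, and ranged from -7.46 to 0.18. Outer and checkpoint members had a median of log2 -4.80, with 21 of 23 lower, and ranged from -7.85 to 2.44. The 6 members with a change under 1 on the log2 scale were CENPB and CENPT inside, MIS12, NSL1 and PMF1 in the KMN network, and BUB3 in the checkpoint.

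Under nutlin-3a, many members with the deepest falls in the control line were higher in the shARVCF lines than in that line. The nutlin-3a control libraries enter both that fall and this difference, so a low value there favours both. Of 39 members, 20 were higher, 5 lower and 14 not called, against 32.3% of all genes called higher and 26.1% called lower, with a median of log2 0.51 beside 0.056 over all genes. All nutlin-3a control libraries came from 1 line. CASC5 was 9.32-fold higher at the levels given above (log2 3.22, SE 0.214, adjusted p = 1.72e-07). BUB1B read 53.86, 57.35 and 89.3 in nutlin-3a shARVCF libraries and 7.727 to 13.59 in nutlin-3a control libraries (log2 2.50, SE 0.223, adjusted p = 1.76e-06). CENPE read 62.13, 66.61 and 118.2 in the shARVCF lines and 12.95 to 14.17 in the control line (log2 2.47, SE 0.21, adjusted p = 1.17e-06). TTK read 20.53, 29.76 and 47.5 in the lines with ARVCF knocked down, against 9.025, 5.588 and 3.672 in nutlin-3a control libraries (log2 2.23, SE 0.32, adjusted p = 7.34e-05). In these 4 genes the groups did not overlap.

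Other members higher in the shARVCF lines included CENPK (log2 1.99, adjusted p = 0.00127), CENPF (1.98, adjusted p = 1.69e-07), BUB1 (1.83, adjusted p = 1.23e-05), NDC80 (1.52, adjusted p = 0.00168), KNTC1 (1.49, adjusted p = 1.02e-05), NUF2 (1.39, adjusted p = 0.000727) and SKA3 (1.32, adjusted p = 0.0036). CENPA was not called (log2 1.21, SE 0.977, adjusted p = 0.325). MKI67 stood at 321.9 to 525.9 in nutlin-3a shARVCF libraries and 77.21 to 117.2 in nutlin-3a control libraries. PCNA went the other way, at 3192 to 4228 in the shARVCF lines and 4171 to 5053 in the control line (log2 -0.33, adjusted p = 0.0212). The part of proliferation in the members' difference was not tested. MAD2L1, NSL1 and ZWINT were called narrowly (log2 0.56, 0.33 and 0.51) and missed the threshold with line as a block (adjusted p = 0.0728, 0.062 and 0.067). Without the nutlin-3a library of line 3, 14 of 39 members (35.9%) were called higher, beside 30.9% of all genes. When the later control libraries 2 and 3 were left out, 11 members (28.2%) were, beside 25.3% of all genes, and with library series as a term 10 were (25.6%), beside 25.1%. The members' share of higher calls was thus near that of all genes in these fits. The calls of CENPK and SKA3 ended without those libraries (adjusted p = 0.0644 and 0.125) and with series as a term (0.0915 and 0.0963), and that of NDC80 with series as a term (1.19, adjusted p = 0.0578).

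The members lower in the shARVCF lines were MAD1L1 (log2 -1.31, SE 0.0983, adjusted p = 4.38e-07), PMF1 (log2 -0.98, SE 0.0905, adjusted p = 2.29e-06), CENPW (log2 -0.81, SE 0.227, adjusted p = 0.00832), CENPT (log2 -0.71, SE 0.189, adjusted p = 0.00635) and CENPB (log2 -0.64, SE 0.125, adjusted p = 0.000755). CENPW, the histone-fold partner of CENPT, read 25.56, 36.08 and 44.65 in nutlin-3a shARVCF libraries and 55.48, 56.66 and 73.81 in nutlin-3a control libraries. CENPW was not called when control libraries 2 and 3 were left out (log2 -0.67, adjusted p = 0.127) or with series as a term (adjusted p = 0.124). In these 5 of 39 members (12.8%) every shARVCF library lay below every control library, beside 29.3% of all genes. In 20 members (51.3%) every one lay above, beside 34.8% of all genes. Those 20 include MIS12, which was not called, and leave out MAD2L1, which was called higher.

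Transcript length moved with this difference. Over 14733 genes (genes, not replicates) the Spearman's rho of the log2 difference with the length of the longest annotated transcript was 0.58. The rho of length with the nutlin-3a response itself was -0.43 in the control line and -0.025 in the shARVCF lines. The 20 higher members had a median length of 3650 bases, the 5 lower ones 2345 and the 14 not called 2461, beside 3351 for all genes. After each library's trend with length and GC was removed, 12 members were higher and 5 lower, against 15.9% of all genes called higher and 23.0% called lower. The log2 differences of those 12 were then CASC5 (2.03), BUB1B (2.00), CENPK (1.76), TTK (1.68), BUB1 (1.35), NDC80 (1.34), CENPE (1.26), NUF2 (1.23), SKA3 (0.97), CENPF (0.82), ZWINT (0.56) and KNTC1 (0.50). MAD1L1 (-0.91), CENPW (-0.78) and PMF1 (-0.30) were still lower, BUB3 (-0.78) and SKA2 (-0.34) were now called lower, and CENPB (-0.13) and CENPT (-0.24) were not called. CENPC stood at log2 0.92 before the removal (adjusted p = 0.000282) and at -0.12 after it (adjusted p = 0.537).

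**Figure D4:**
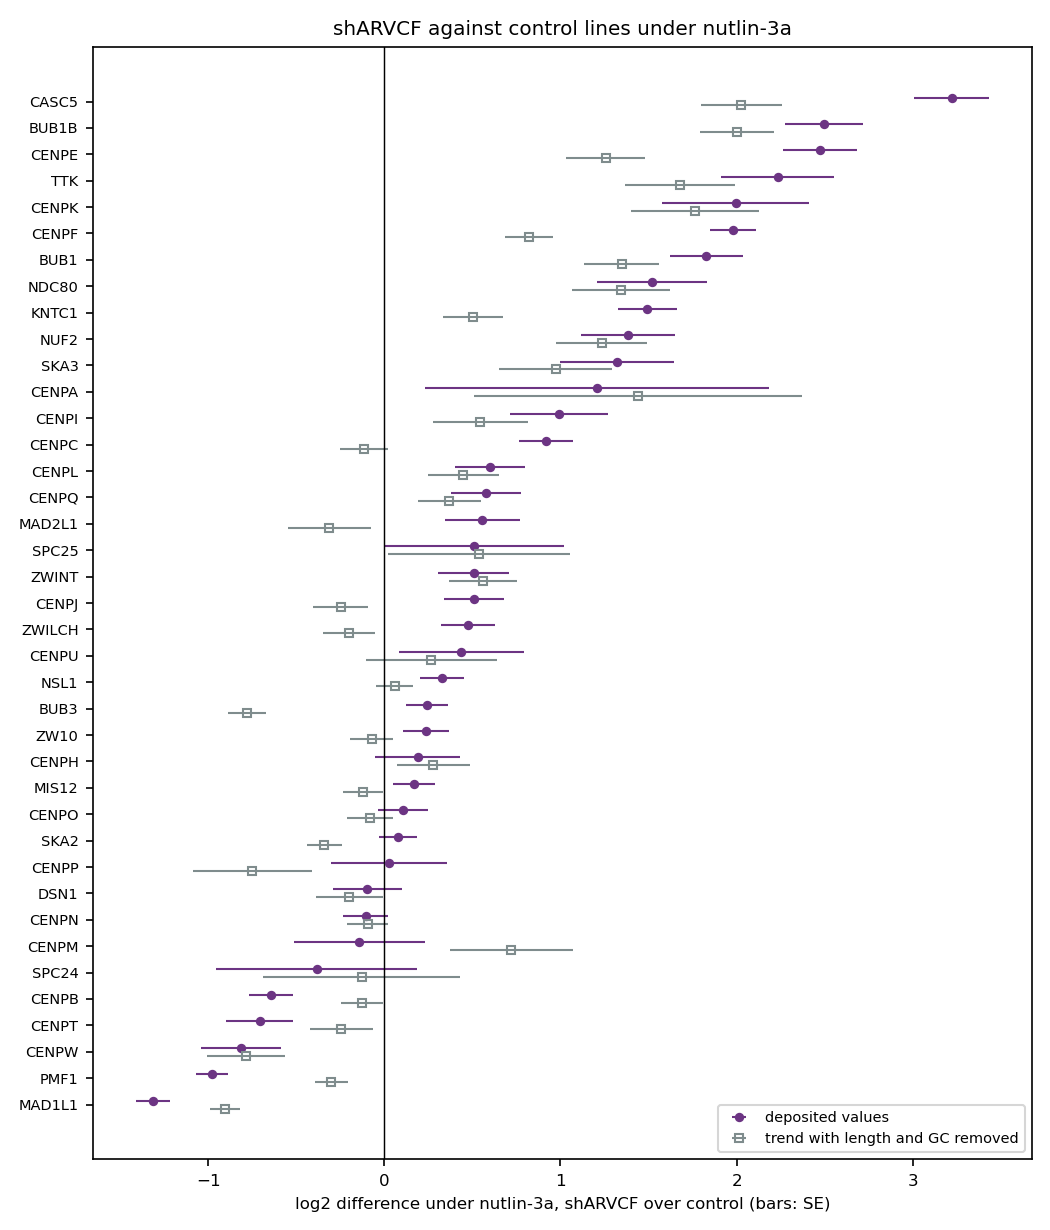
Difference under nutlin-3a between the shARVCF and control lines for the 39 members tested, as log2 of shARVCF over control with SE bars, on deposited values and with the trend of length and GC removed. CASC5 and BUB1B lie far to the right on both, whereas CENPC moves to -0.12 and BUB3 to -0.78 after the removal.

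CENPF kept 3.42%, 3.27% and 4.23% of its untreated level in shARVCF lines 1, 2 and 3, and 0.999%, 0.901% and 1.06% in the control libraries. CASC5 kept 3.69%, 2.54% and 4.39% of its untreated level with ARVCF knocked down and 0.281%, 0.433% and 0.436% in the control libraries. Each control percentage rests on the same untreated library. Line 3 had the highest nutlin-3a level of the shARVCF lines for 30 of 39 members (76.9%), beside 38.5% of all genes tested, and for 14 of 39 (35.9%) without drug, beside 33.7% of all genes.

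**Figure D5:**
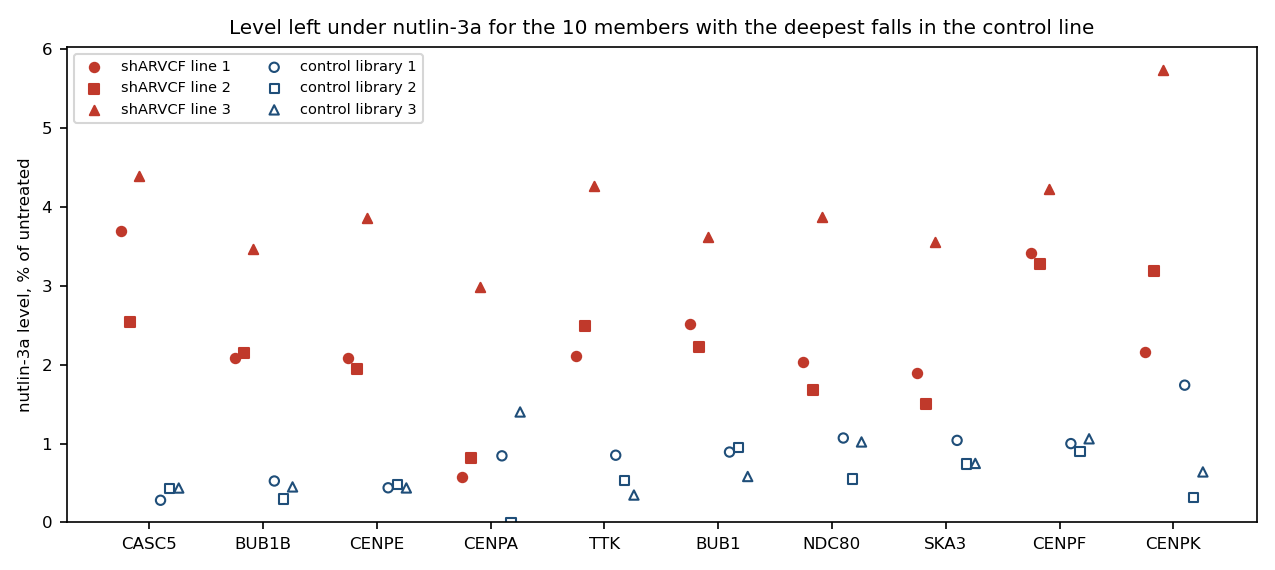
Nutlin-3a level as a percentage of the untreated level for the 10 members with the deepest falls in the control line, for each shARVCF line against its own untreated library and each control library against the lone untreated control. Line 3 is the highest shARVCF line in all 10 genes. The genes were picked by the control libraries shown, which favours low control percentages.

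Without drug, no member was called between the shARVCF and control lines. By limma 0 of 39 were called and 0 had an unadjusted p under 0.05, against 0.0201% of all genes called, and the log2 differences ran from -0.155 to 0.206. The untreated control library lay within the range of the untreated shARVCF lines for 27 of 39 members, below all of them for 11 (28.2%) and above for 1. Of all genes tested, 60.1% lay within that range, 19.0% below and 20.9% above. With 1 control library, small differences were not detectable.

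The nutlin-3a effect itself differed between the kinds of line for 11 of 39 members by the interaction term of limma, beside 4756 of all 14955 genes. The members' share of calls was thus not above that of all genes. It was higher in the shARVCF lines for 9 and lower for 2, against 19.3% of all genes called higher and 12.5% called lower. On deposited values CASC5 had the largest gap, with log2 -4.84 in the shARVCF lines and -7.85 in the control line (difference log2 3.02, SE 0.371, adjusted p = 0.000134). After the length and GC removal the gap of BUB1B (log2 2.03) was larger than that of CASC5 (1.88). PMF1 kept 56.9% to 58.1% of its untreated level in the shARVCF lines, and the control line held 109% to 120% (difference log2 -0.98, SE 0.157, adjusted p = 0.000693). CENPB and NDC80 were not called (difference log2 -0.58, adjusted p = 0.06, and 1.45, adjusted p = 0.0648) but were with line as a block (adjusted p = 0.0358 and 0.0493). With length and GC trends removed, 3 members were higher and 2 lower, against 5.3% of all genes called higher and 8.23% called lower. BUB1, BUB1B, CASC5 and MAD1L1 kept their call there, and BUB3 was called in addition. With line as a block as well, 6 members were higher and 2 lower, against 7.09% of all genes called higher and 10.6% called lower, and CENPE, CENPF and TTK then kept their call too. Upper-quartile scaling put 2493 of all genes higher and 2541 lower in this term, against 2893 higher and 1863 lower on the deposited scale.

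A further 29 genes of CENPA loading, the passenger complex, checkpoint silencing and microtubule partners were listed beside the members. Of 28 tested, 25 fell and 0 rose in the shARVCF lines (median log2 -3.53), and 25 fell and 0 rose in the control line (median -4.29). With nutlin-3a, 21.7% of all 14955 genes were called lower where ARVCF was knocked down, and 32.0% were in control cells. BIRC5, or survivin, of the passenger complex changed by log2 -4.96 in the shARVCF lines and -5.62 in the control line. HJURP, the chaperone that loads CENPA, changed by log2 -5.30 with ARVCF knocked down and -6.79 in the control line, and each of these falls was called. Under nutlin-3a, 16 of the 28 were higher in the shARVCF lines and 2 lower, beside 32.3% of all genes called higher and 26.1% called lower. CLASP2, which stabilises microtubules, was among those higher there (log2 1.43, adjusted p = 2.27e-06). The lower ones were STRA13, which encodes CENPX (log2 -1.21, adjusted p = 2.19e-05), and MAD2L1BP, which silences the checkpoint (-0.50, adjusted p = 0.00538). With length and GC trends removed, CLASP2 was still called (log2 0.46, adjusted p = 0.00778) and MAD2L1BP was not (log2 -0.06, adjusted p = 0.712), while STRA13 has no annotation to remove them by.

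Promoters are shown for members at the ends of the range of responses on deposited values. BUB1B, CENPE and CENPA had the deepest falls in the control line among members with an entry. CENPB and CENPT had small changes, and MAD1L1 was added after its values were seen. Each promoter is 300 bases on its own strand, 250 before and 50 after the RefSeq start (GRCh38.p14). Capitals mark a match to CHR (TTTGAA or TTCGAA), the CCAAT box (CCAAT) or an E2F core (TTGGCGC, in which each of the paired Gs may be a C) on either strand.
BUB1B (chr15:40160819-40161118, plus strand): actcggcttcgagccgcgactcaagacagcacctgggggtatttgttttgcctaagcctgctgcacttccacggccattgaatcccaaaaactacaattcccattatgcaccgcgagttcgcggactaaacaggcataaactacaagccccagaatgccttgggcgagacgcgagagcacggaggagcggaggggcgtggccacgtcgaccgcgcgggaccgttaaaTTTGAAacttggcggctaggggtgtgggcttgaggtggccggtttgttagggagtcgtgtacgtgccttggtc
CENPE (chr4:103198294-103198593, minus strand): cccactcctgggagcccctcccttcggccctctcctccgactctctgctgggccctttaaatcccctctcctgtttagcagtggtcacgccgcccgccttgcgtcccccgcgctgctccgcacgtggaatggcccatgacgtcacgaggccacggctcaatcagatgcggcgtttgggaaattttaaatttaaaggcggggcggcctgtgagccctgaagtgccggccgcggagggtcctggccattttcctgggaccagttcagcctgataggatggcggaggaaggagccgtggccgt
CENPA (chr2:26785806-26786105, plus strand): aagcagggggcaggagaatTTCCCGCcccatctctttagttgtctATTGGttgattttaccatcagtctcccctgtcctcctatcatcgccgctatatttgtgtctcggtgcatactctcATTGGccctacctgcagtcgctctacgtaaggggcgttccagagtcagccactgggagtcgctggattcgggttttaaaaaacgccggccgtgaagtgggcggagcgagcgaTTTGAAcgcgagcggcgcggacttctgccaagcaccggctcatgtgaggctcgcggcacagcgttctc
CENPB (chr20:3786691-3786990, minus strand): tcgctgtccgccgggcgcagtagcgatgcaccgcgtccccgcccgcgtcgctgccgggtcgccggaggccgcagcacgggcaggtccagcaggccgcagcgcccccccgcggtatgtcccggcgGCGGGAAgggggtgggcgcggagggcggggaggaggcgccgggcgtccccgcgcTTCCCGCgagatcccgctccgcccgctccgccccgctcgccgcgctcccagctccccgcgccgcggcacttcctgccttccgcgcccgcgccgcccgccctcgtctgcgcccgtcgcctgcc
CENPT (chr16:67847644-67847943, minus strand): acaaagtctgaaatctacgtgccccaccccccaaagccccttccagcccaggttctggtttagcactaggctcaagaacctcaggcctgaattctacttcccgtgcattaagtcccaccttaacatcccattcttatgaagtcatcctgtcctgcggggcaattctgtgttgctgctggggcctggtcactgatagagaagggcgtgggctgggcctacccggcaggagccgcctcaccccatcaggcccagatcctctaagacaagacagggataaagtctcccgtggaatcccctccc
MAD1L1 (chr7:2232896-2233195, minus strand): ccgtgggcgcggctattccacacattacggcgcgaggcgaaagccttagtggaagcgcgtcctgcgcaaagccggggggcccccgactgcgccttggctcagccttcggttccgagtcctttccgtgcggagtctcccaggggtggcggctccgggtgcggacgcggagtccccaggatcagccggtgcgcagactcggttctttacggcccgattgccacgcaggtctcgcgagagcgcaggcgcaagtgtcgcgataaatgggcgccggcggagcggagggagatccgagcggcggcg

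The BUB1B and CENPA promoters hold the letters TTTGAA, starting 23 and 18 bases before the start site, and CENPA also holds CCAAT boxes read on the opposite strand and an E2F core. The CENPB promoter holds 2 E2F cores and no CHR, and those of CENPE, CENPT and MAD1L1 hold none of the letters searched. Of the 40 members, 33 had a promoter in the RefSeq table, and 16 of these (48.5%) held a CHR match, beside 11.5% of the 11804 tested genes with a promoter and 16.6% of all 27305 promoters. In 14 of the 33 members (42.4%) the match lay within 50 bases of the start site, a window chosen after the positions were seen, beside 3.29% of tested genes. Over the whole 300 bases, CHR was in 13 of the 23 members with a promoter that fell by more than 2 on the log2 scale in both kinds of line (56.5%) and in 2 of the 9 other tested members (22.2%), counts too small to read a difference from. CCAAT boxes were in 56.5% and 55.6% of these sets and E2F cores in 34.8% and 44.4%. Over all members, CCAAT boxes were in 18 of 33 promoters (54.5%), beside 35.9% of tested genes, and E2F cores in 13 (39.4%), beside 2359 of the 11804 tested genes. A match describes letters and is no measure of binding.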

How the data were processed

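RNA of 10 U2OS libraries was sequenced from stranded mRNA preparations, per the labels' protocols. The deposited values are a signal per gene, fragments estimated and scaled per library by the authors with Cuffnorm 2.2.1 after bcl2fastq 1.8.3 and HISAT2 2.1.0 on hg38, per the submitters' processing notes. Only 48.7% to 55.1% of values above 0 were whole multiples of a library's step, taken as its most frequent low value (tolerance 0.01). No count model was therefore used, and depth is an estimate. Values were tested with limma 3.58.1 (R 4.3.3) on log2(value + 1), with 4 group means, 10 libraries, 6 residual degrees of freedom and trended, robust variances, over 14955 genes with at least 10 in at least 3 libraries. P-values were adjusted by Benjamini-Hochberg over all genes and called at 0.05. The fit was also run on simulated data with independent noise and set changes in the nutlin-3a shARVCF group alone. That simulation held no line pairing, library series or length and GC trend, so it does not bear on those features.

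Length and GC came from GENCODE 29 (24016 symbols matched by name, 716 by an older name, 1308 unmatched), and their trend was removed per library by splines with 4 degrees of freedom over 14733 genes. STRA13 and APITD1 had no match. The replicate number marks the cell line in the shARVCF groups and so pairs their libraries (correlation of deviations 0.275, 0.288 and 0.327 within a line, -0.204 to -0.0862 between lines). Control nutlin-3a libraries 2 and 3 have later library names and were treated as their own series. All members could be named, and of the other pathway genes up to 3 per comparison with the smallest adjusted p and those against the common direction; a gene that this rule names is not reported here. Members and lists were chosen with earlier results of these data known. Alternatives were other pseudocounts, filters, scalings, the length and GC removal, library series, the replicate block and each library left out.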

Additional observations from a re-analysis of the deposited data

Results flagged for a closer look

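For the 14 genes named here the nutlin-3a effect differed between the shARVCF lines and the control line by the interaction term of limma, after adjustment over all genes. Of the 39 members 11 were called (28.2%), beside 4756 of all 14955 genes (31.8%). Values are the effect in the shARVCF lines minus that in the control line, on the log2 scale. Of the outer kinetochore members, CASC5 differed by 3.02, CENPE by 2.39, CENPF by 1.87, NUF2 by 1.31, KNTC1 by 1.31 and PMF1 by -0.984. In the checkpoint, BUB1B differed by 2.48, TTK by 2.19, BUB1 by 1.75 and MAD1L1 by -1.22. CENPC, at the inner centromere, differed by 0.904. Outside the members, the microtubule partners CLASP2 and CLASP1 differed by 1.57 and 0.765, and STRA13 by -1.12. With length and GC trends removed, CENPE, CENPF, NUF2, KNTC1, PMF1, TTK and CENPC were no longer called, CENPC with its sign turned (-0.072). In the same fit CLASP1 stood at -0.11 (adjusted p = 0.696) and CLASP2 at 0.632 (adjusted p = 0.0571), and neither was called. With library series as a term, TTK (1.62), NUF2 (1.57) and CENPC (0.898) kept their sign but were not called. NUF2 was called narrowly on deposited values (adjusted p = 0.0479). It also missed the call with TMM, relative log expression or upper-quartile scaling, with a pseudocount of 10 and without the filter. Most fits with a library left out did not call NUF2 either. The untreated control behind each value is the same single library.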

How the results depend on the processing

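The nutlin-3a counts moved little: 38 members were lower in the shARVCF lines under every scaling, pseudocount and filter tried, and 37 to 38 when a library was left out. In the control line 35 were lower with each library left out. The count of members higher in shARVCF than control under nutlin-3a, 20 on the deposited values, was 12 with the length and GC trend removed, 11 with the first library series alone, 10 with series as a term, and 14 to 20 with a library left out. The interaction count of 9 was 3 with length and GC removed, and 8 to 10 with a library left out. Without drug it was 0 throughout. The cause of these shifts was not tested.

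With the replicate block on line, 38, 35, 17, 0 and 10 members were called in the same order of comparisons (lower with nutlin-3a in shARVCF, lower in control, higher under nutlin-3a, called without drug, higher interaction), and no other call of a member changed than those given beside the results. Of all 14955 genes, the block fit called 23.3% lower with nutlin-3a in the shARVCF lines, 33.4% lower in control and 30.1% higher under nutlin-3a. It called 3 of those genes without drug and 3219 higher in the interaction. The block together with the length and GC removal left 10 members higher under nutlin-3a (25.6%, beside 13.1% of all genes) and 6 higher in the interaction.

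Among the recomputed values counted below, signs turned as follows. With length and GC removed, the control response was log2 0.20 for BUB3, -0.26 for CENPT and -0.57 for PMF1, the difference under nutlin-3a was -0.12 for CENPC, -0.20 for ZWILCH, -0.31 for MAD2L1 and -0.25 for CENPJ, and the interaction was -0.072 for CENPC and -0.11 for CLASP1. The control response of CENPB, not called, was 0.091 with upper-quartile scaling, 0.096 with the first series alone or series as a term, and -0.16 to 0.0016 with a control nutlin-3a library left out. Of the single-gene values recomputed, 2270 kept direction and call, 94 lost the call, 13 gained it and 13 turned. CENPB in the control response with length and GC removed was among the gains. These values cover members called on the deposited values and a few other named genes, and leave out the fits with the block or without the filter. Most members not called there were left out. Among those, BUB3 and SKA2 turned sign and were called with length and GC removed, in the difference under nutlin-3a (0.24 to -0.78 and 0.077 to -0.34). BUB3 did so in the interaction too (0.056 to -0.93). Scaling moved the median of all genes in the control response between log2 -0.215 (equal totals) and 0.071 (upper quartile), which small changes such as those of CENPB, CENPT and PMF1 must be read against. Low nutlin-3a levels and the single untreated control library limit the precision.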

Other observations

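The genes beside MAD1L1 on chromosome 7 did not share one response to nutlin-3a. MAFK rose in both kinds of line (log2 0.93 in the shARVCF lines and 1.34 in the control line), and so did SNX8 (0.435 in the shARVCF lines and 0.78 in the control line). NUDT1, upstream of MAD1L1, fell in both (log2 -1.89 in the shARVCF lines and -0.79 in the control line). PSMG3 fell in the shARVCF lines (log2 -0.53) and rose in the control line (0.78). Under nutlin-3a, MAFK, PSMG3, ELFN1, FTSJ2, NUDT1, SNX8 and EIF3B were all lower in the shARVCF lines than in the control line, by 0.34 to 1.16 on the log2 scale, as was MAD1L1, while TMEM184A was not called (log2 -0.083, adjusted p = 0.752). Of all genes tested, 26.1% were called lower in this comparison. These are deposited values, with no removal of the length and GC trend, and a shared effect on these neighbours was not tested.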
